A study of Mus musculus with 18 samples.

Results

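A set of 8 genes that act on liver glycogen were followed as mRNA in mouse liver. These were the 8 rows of the table of 19057 rows that carry the symbols Gys2, Gbe1, Ugp2, Pygl, Phka2, Ppp1r3b, Ppp1r3c and Ppp1r3g. Each was found once. The rows were picked out by symbol, and the set was chosen with earlier results of these data known. Livers of 18 male ICR mice sampled at 10 weeks of age were sequenced, 3 mice in each of 6 groups. Con mice were the controls without STZ, AOS or transplant. STZ mice received streptozotocin (STZ), a toxin of pancreatic beta cells, in a single injection, as a model of type 1 diabetes. A10-FMT mice received STZ and then microbiota from the small intestine of donors given alginate oligosaccharide (AOS) at 10 mg/kg. Con-FMT mice received STZ and then microbiota from the small intestine of control donors. The paper calls this fecal microbiota transplantation (FMT). AOS mice received AOS at 10 mg/kg without STZ, and STZ+AOS mice received both agents. The transplanted material was pooled within a donor group, so the mice of a transplanted group do not stand for separate donors. Values are RPKM (read numbers corrected for transcript length and library size), which may be compared between genes as levels per length.

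Liver stores glucose as glycogen after meals and releases it between meals. UDP-glucose is the glucose donor, glycogen synthase and the branching enzyme build the polymer, and glycogen phosphorylase takes glucose off it. Phosphorylase kinase switches phosphorylase on, whereas protein phosphatase 1, held on the glycogen particle by targeting subunits, switches synthase on and phosphorylase off. Insulin is known to favour storage in liver.

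The 8 genes were all above 1 RPKM in at least 3 libraries and were all tested. Ppp1r3g was under 1 RPKM in every Con mouse. In the fit without the AOS and STZ+AOS groups it therefore passed this filter only through mice given STZ. Pygl was at 102 to 174 RPKM over the 18 livers and Ugp2 at 56.1 to 336 RPKM, whereas Phka2 lay between 3.97 and 12.01 RPKM. Ppp1r3g had the widest range, from 0.03 to 58.1 RPKM, and values of this gene under 1 RPKM rest on few reads. The exons of Ugp2 overlap those of Gm12043 and the exons of Phka2 those of Gm15243, and reads of such pairs were not separated here.

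Facts of the libraries touch every comparison below. RPKM summed over all genes to 749557 to 806937 in Con and 631126 to 684659 in STZ, and the median log2 change of all 10602 tested genes in STZ against Con was 0.21, or -0.01 when libraries were first brought to a common scale by their median ratios to a reference (median-ratio scaling). Of all calls, 85.7% were higher in STZ as deposited and 51.5% after that scaling. On the first principal component, which held 57% of the variance, STZ mouse 3 scored 0.182 while the other STZ mice scored 45.9 and 46.4 and the transplanted mice ran from -13.1 to 18.3. The 7 hepatocyte markers summed to 39220 to 59684 RPKM over all groups together, none being at 0 in every library. In STZ against Con 3 of the 7 were higher and 2 lower at a limma adjusted p under 0.05. Over all tested genes 33.0% were higher and 5.52% lower. The 6 Kupffer cell markers summed to 52.8 to 82.2 RPKM in Con and 83.3 to 188 RPKM in STZ. The 5 stellate cell markers summed to 68.1 to 79.4 and 106 to 126 RPKM. Only 2 of the Kupffer and 1 of the stellate markers were higher in STZ at a limma adjusted p under 0.05. This compares with 33.0% of all tested genes. Median log2 changes of the 2 lists were 0.67 and 0.12, beside 0.21 for all tested genes. The part of either cell type in the changes given here was not tested. In bulk liver, fewer cells of a type and less RNA per cell cannot be told apart.

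STZ against Con asked what the diabetes model did to these genes in liver. Ugp2, Gys2 and Gbe1, which act in making UDP-glucose and glycogen, rose (Gbe1 was not called after median-ratio scaling). Of 5 further tested genes for glycogen formation, given below, only 1 was called. The phosphorylase gene did not pass the test, and the targeting subunits moved in opposite directions. Of the 8 genes, 4 were higher (Ugp2, Gys2, Gbe1 and Ppp1r3g) and 2 lower (Ppp1r3b and Ppp1r3c) at an adjusted p under 0.05. Ppp1r3g counts among the 4 although it entered the test only through mice given STZ. Over all tested genes, 38.5% were called, 33.0% higher and 5.52% lower. The STZ and Con mice did not overlap in those same 6 genes, against 47.7% of all tested genes (40.8% higher and 6.98% lower). Without STZ mouse 3 Phka2 was called as well, which made 7 of 8, and 47.4% of all tested genes were called. The median change of the 8 genes was 0.49 on the log2 scale, beside 0.21 for all tested genes.

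**Figure D1:**
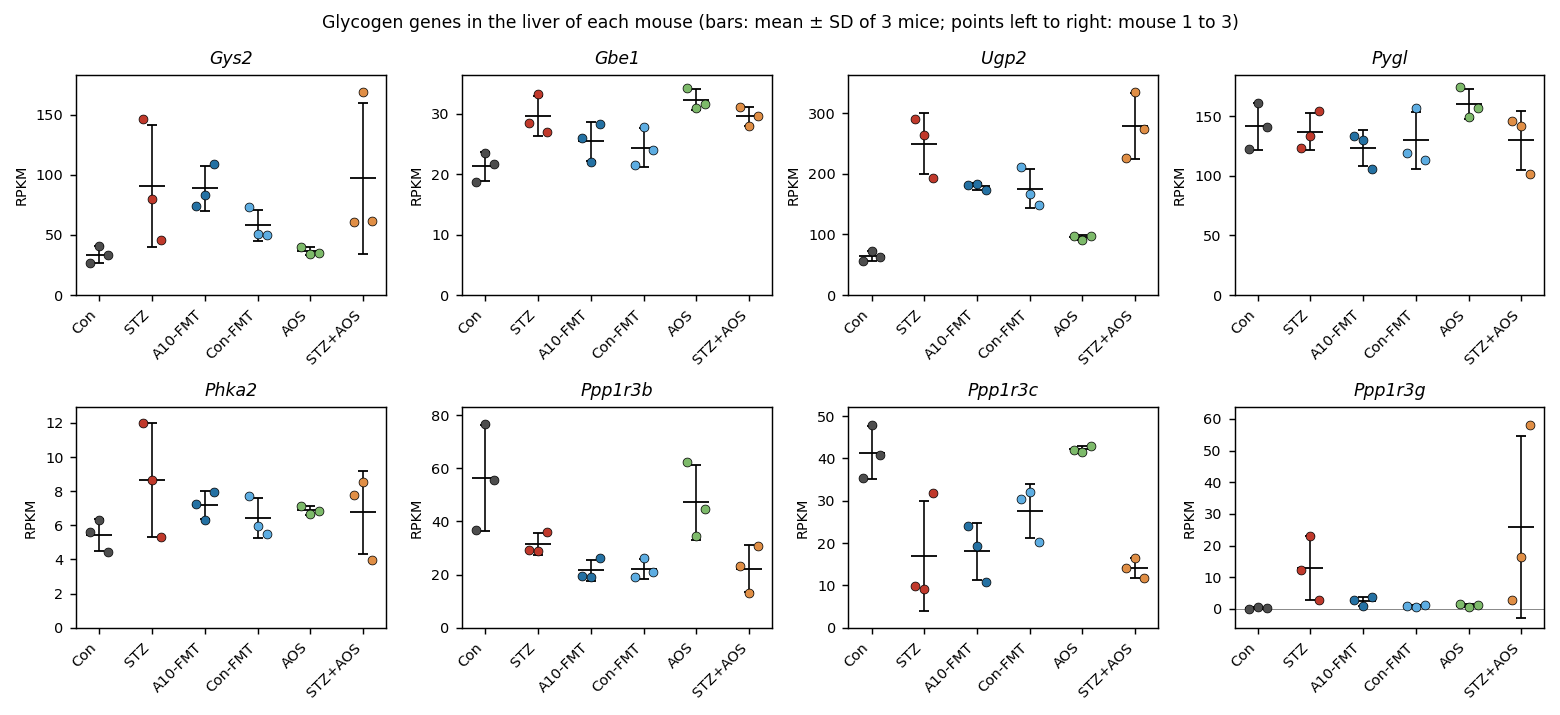
Level of each of the 8 glycogen genes as RPKM (linear axis) in the 6 groups. Points are the 3 mice of a group, horizontal marks the means and bars the SD, and all STZ mice lie above all Con mice for Gys2, Gbe1, Ugp2 and Ppp1r3g and below them for Ppp1r3b and Ppp1r3c.

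Ugp2 encodes UDP-glucose pyrophosphorylase, which makes UDP-glucose. The gene lies on the minus strand of chromosome 11 (21321138 to 21371201, GRCm38). Its RPKM was 56.1, 72.65 and 62.4 in Con mice 1 to 3 and 290.4, 264 and 194 in STZ mice 1 to 3. Every STZ mouse lay far above every Con mouse. The mean was 63.7 ± 8.37 RPKM in Con and 249.5 ± 50.1 RPKM in STZ (SD, n = 3 each). This is a log2 change of 1.94 ± 0.17 (SE; limma adjusted p = 0.000139). Ranked by signed change, from the most lowered to the most raised, Ugp2 stood at the 99th percentile of all tested genes.

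Gys2 encodes liver glycogen synthase, which adds glucose to the chain. It lies on the minus strand of chromosome 6 (142422613 to 142473109). Its RPKM was 26.3, 41.0 and 33.7 in the Con mice and 147, 79.6 and 46.2 in the STZ mice. The STZ mice were spread widely, with mouse 3 only just above the highest Con mouse. The log2 change was 1.27 ± 0.34 (SE; limma adjusted p = 0.0142). Without Con mouse 1 it was 1.11 and was not called (adjusted p = 0.0594).

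Gbe1, the glycogen branching enzyme (plus strand of chromosome 16, 70313949 to 70569716), changed far less. Its RPKM was 18.7, 23.5 and 21.7 in Con and 28.5, 33.3 and 27.0 in STZ, with no overlap. The log2 change of 0.46 ± 0.13 (SE; limma adjusted p = 0.0198) depended on scaling. It was 0.20 after median-ratio scaling (adjusted p = 0.28) and 0.19 after quantile normalization (0.297), and the call was also lost without STZ mouse 2 (0.0789) or Con mouse 1 (0.0806).

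The breakdown side did not pass the test. Pygl, liver glycogen phosphorylase (minus strand of chromosome 12, 70190811 to 70231488), was at 122, 161 and 141 RPKM in Con and at 124, 134 and 154 RPKM in STZ. Both groups covered nearly the same range, and the log2 change was -0.04 (95% interval -0.39 to 0.30; limma adjusted p = 0.852). Its sign turned when STZ mouse 1 or Con mouse 2 was left out. Phka2, the liver alpha subunit of phosphorylase kinase (plus strand of chromosome X, 160502166 to 160598878), was at 5.6, 6.32 and 4.46 RPKM in Con and at 12.01, 8.64 and 5.30 RPKM in STZ. STZ mouse 3 lay inside the Con range, and the log2 change of 0.53 (95% interval 0.04 to 1.02) had an adjusted p of 0.0822 in limma. Without STZ mouse 3 it was 0.80 and was called higher (limma adjusted p = 0.00393).

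The ratio of Gys2 to Pygl mRNA, both per length, was 0.215 to 0.254 in Con, 0.300 to 1.18 in STZ and 0.222 to 0.231 in AOS. It was 0.550 to 1.03 in A10-FMT, 0.325 to 0.612 in Con-FMT and 0.413 to 1.19 in STZ+AOS. No mouse given STZ had a ratio as low as the highest mouse without STZ.

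Ppp1r3c, Ppp1r3b and Ppp1r3g encode targeting subunits that bring protein phosphatase 1 to glycogen. Ppp1r3c (minus strand of chromosome 19, 36731731 to 36736653) was at 35.4, 47.9 and 40.8 RPKM in Con and at 9.81, 9.23 and 31.9 RPKM in STZ. STZ mice 1 and 2 were far below every Con mouse, and mouse 3 came close to the lowest of them. The log2 change was -1.45 ± 0.41 (SE; limma adjusted p = 0.0179). Without STZ mouse 1, STZ mouse 2 or Con mouse 2 the call was lost (adjusted p = 0.0651, 0.0762 and 0.0521), and without STZ mouse 3 the change was -2.0 (0.000411).

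Ppp1r3b (plus strand of chromosome 8, 35375739 to 35388139), which encodes the targeting subunit long known as the liver form, was at 36.7, 76.6 and 55.6 RPKM in Con and at 29.1, 28.95 and 36.1 RPKM in STZ. The highest STZ mouse was just under the lowest Con mouse. The log2 change was -0.77 ± 0.23 (SE; limma adjusted p = 0.0232). This call was lost in a fit of all 6 groups (adjusted p = 0.0515), in a fit of Con and STZ alone (0.0605) and without STZ mouse 1, STZ mouse 2, Con mouse 2 or Con mouse 3 (0.0641 to 0.0773).

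Ppp1r3g (plus strand of chromosome 13, 35958839 to 35970388) was almost silent in Con, at 0.03, 0.65 and 0.37 RPKM. In STZ it was at 12.3, 23.2 and 2.96 RPKM, so that mouse 3 was again the one nearest to Con. The log2 change of 3.03 ± 0.54 (SE; limma adjusted p = 0.00217) is on the log2(RPKM + 1) scale, which understates a change from such low values. It was called higher without any 1 of the 6 mice, at 2.45 to 3.76. Leaving out a mouse does not undo that Ppp1r3g entered the test only through mice given STZ.

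As a share of the summed RPKM of the 3 targeting subunits, Ppp1r3g took 0.0416 to 0.520% in Con and 24.02, 37.7 and 4.17% in STZ mice 1, 2 and 3. The sum itself was 72.1 to 125 RPKM in Con and 51.3 to 71.0 RPKM in STZ. In STZ+AOS the share of Ppp1r3g ran from 7.30 to 57.7%, in A10-FMT from 2.24 to 8.91%, in Con-FMT from 0.798 to 2.57% and in AOS from 0.680 to 1.352%. All STZ and STZ+AOS mice but STZ mouse 3 and STZ+AOS mouse 1 lay above every transplanted mouse.

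**Figure D2:**
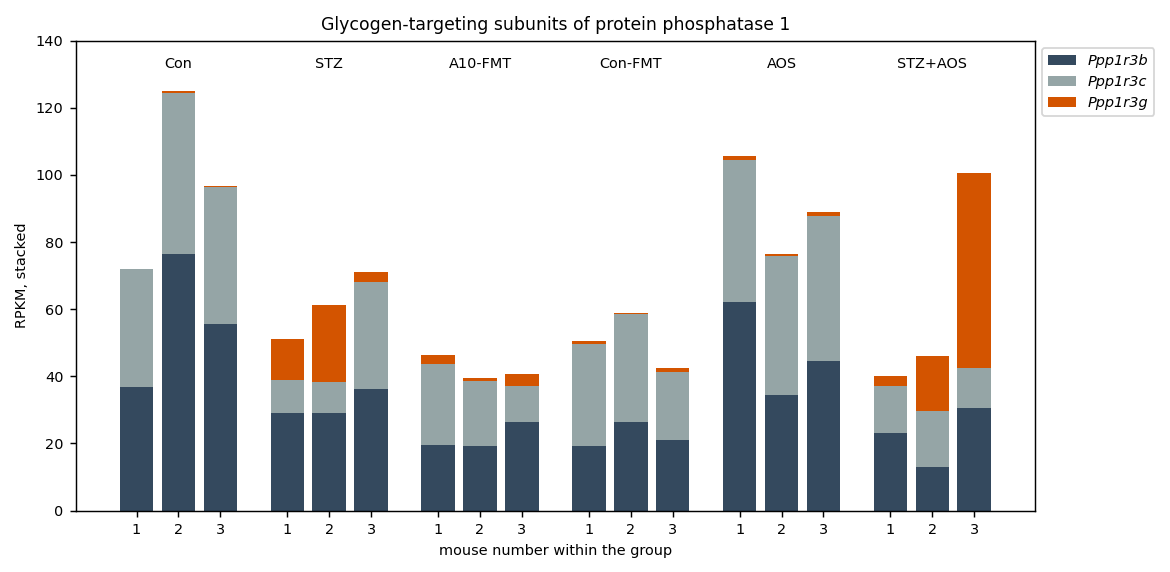
RPKM of the 3 targeting subunits of protein phosphatase 1, stacked, in each of the 18 mice (linear axis from 0). Ppp1r3g is at 0.03 to 0.65 RPKM in the Con mice and reaches 12.3 and 23.2 RPKM in STZ mice 1 and 2 and 58.1 RPKM in STZ+AOS mouse 3.

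Promoter sequence was read for the 3 genes with the largest changes, since 1 fell and the others rose. Each run below is 5′ to 3′ on the strand of the gene, from the 250 bases before a RefSeq start (GRCm38.p6), and bases that lie in an annotated exon were left out. Capitals mark the E-box CACGTG and the CCAAT box, which reads ATTGG on the other strand. Ugp2 has another start, whose run (chr11:21370630-21370879) held no marked motif and is not printed. The run of Ppp1r3g lies inside the gene span given above, so it precedes an internal start.
Ppp1r3c, chr19:36736654-36736854, minus strand: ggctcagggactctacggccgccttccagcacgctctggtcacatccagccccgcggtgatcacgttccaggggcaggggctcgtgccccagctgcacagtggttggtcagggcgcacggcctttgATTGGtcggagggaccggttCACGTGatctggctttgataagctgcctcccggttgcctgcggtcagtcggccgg
Ugp2, chr11:21371268-21371459, minus strand: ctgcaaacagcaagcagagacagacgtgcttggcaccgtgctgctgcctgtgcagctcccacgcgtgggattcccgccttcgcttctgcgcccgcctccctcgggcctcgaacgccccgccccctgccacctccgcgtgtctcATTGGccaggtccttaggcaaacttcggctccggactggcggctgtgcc
Ppp1r3g, chr13:35967656-35967852, plus strand: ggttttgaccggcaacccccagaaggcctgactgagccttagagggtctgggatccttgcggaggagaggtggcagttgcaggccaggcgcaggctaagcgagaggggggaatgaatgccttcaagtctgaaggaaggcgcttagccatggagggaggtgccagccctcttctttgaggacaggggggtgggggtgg

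A set of 6 motifs were searched on both strands of windows from 250 bases before to 50 bases after the start, which were held for 6 of the 8 genes (Gbe1, Ugp2, Pygl, Phka2, Ppp1r3c and Ppp1r3g). CACGTG was found only in the window of Ppp1r3c among these, with its first base 104 bases before the start, and in 7.15% of 32851 windows of all genes. CCAAT was found in the windows of Ppp1r3c, Ugp2 and Ppp1r3g and in 37.4% of all windows. The copy of Ppp1r3g begins 18 bases before the start, in the part not printed. TGTTTAC (3.65% of all windows), TGACGTCA (1.79%), TTATGTAA (0.938%) and TATAAA (13.6%) were in none of the members' windows. These matches describe letters and are not sites.

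STZ+AOS against AOS gave a second view of STZ, in 6 mice that share none with STZ against Con. This comparison was added after the data had been seen. The filter and the spread behind its p-values came from the fit of all 6 groups, Con and STZ mice included. Its calls are therefore not independent of those in STZ against Con. Of the 8 genes 5 were called, against 37.9% of 10822 tested genes (31.8% higher and 6.11% lower), and Ugp2, Gys2 and Ppp1r3g were higher while Ppp1r3b and Ppp1r3c were lower. The mice did not overlap in 6 of the 8 genes, Pygl being the one not called, against 49.1% of all tested genes (40.5% higher and 8.61% lower). The median change of the 8 genes was -0.10, beside 0.21 for all tested genes. Of the 5 genes called, Gys2 and Ppp1r3b were not called in a fit of the compared groups alone.

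Ugp2 was at 97.25, 90.1 and 97.5 RPKM in AOS and at 227, 336 and 274 RPKM in STZ+AOS. The log2 change was 1.53 ± 0.17 (SE; limma adjusted p = 4.96e-05). Gys2 was at 40.2, 34.4 and 34.9 RPKM in AOS, and it reached 60.5, 169 and 61.2 RPKM in STZ+AOS. Its change of 1.21 ± 0.39 (SE; limma adjusted p = 0.0227) leaned on STZ+AOS mouse 2, without which it was 0.73 (0.107), and was also not called without AOS mouse 2 (0.0658) or AOS mouse 3 (0.0615). A fit of the compared groups alone gave adjusted p = 0.0553 for this gene.

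Ppp1r3c was at 42.1, 41.4 and 43.0 RPKM in AOS and at 14.01, 16.6 and 11.9 RPKM in STZ+AOS, with a log2 change of -1.52 ± 0.36 (SE; limma adjusted p = 0.00479). Ppp1r3b went from 62.3, 34.5 and 44.7 RPKM to 23.2, 13.0 and 30.7 RPKM, a change of -1.09 ± 0.29 (SE; limma adjusted p = 0.0101) that was not called in a fit of the compared groups alone (0.0507). Both fell in every STZ+AOS mouse below every AOS mouse. Ppp1r3g was at 1.43, 0.52 and 1.12 RPKM in AOS and at 2.93, 16.5 and 58.1 RPKM in STZ+AOS (log2 change 3.01 ± 0.74, SE; limma adjusted p = 0.00638). The highest value belongs to STZ+AOS mouse 3, whose 5 exocrine pancreas markers summed to 65.5 RPKM against at most 1.89 RPKM in any other library. Without that mouse Ppp1r3g was still called higher, at 2.06 (limma adjusted p = 0.0288). In this fit too the gene met the filter only with the help of mice given STZ.

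Gbe1, at 34.3, 31.0 and 31.6 RPKM in AOS and 31.05, 28.0 and 29.7 RPKM in STZ+AOS, had a log2 change of -0.12 (limma adjusted p = 0.429). Pygl, at 174, 149 and 157 RPKM in AOS and 147, 142 and 102 RPKM in STZ+AOS, had a change of -0.32 (limma adjusted p = 0.139). After median-ratio scaling, Gbe1 (-0.36, limma adjusted p = 0.032) and Pygl (-0.56, 0.0282) were called lower and Gys2 was not called (0.97, 0.0641). That made 2 genes higher and 4 lower, in place of 3 and 2. Phka2 had a change of -0.08 (limma adjusted p = 0.825).

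**Figure D3:**
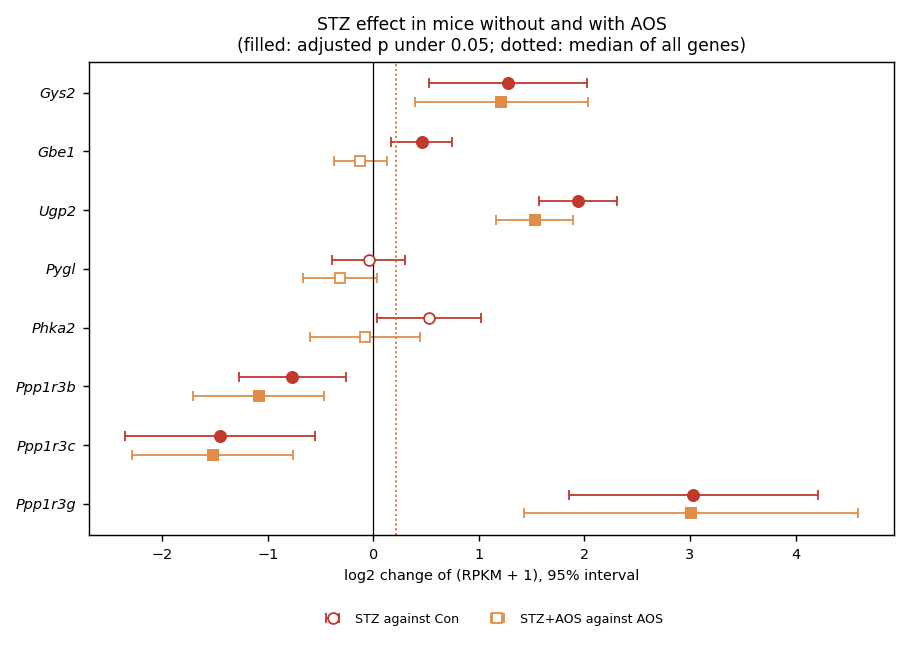
Log2 change of RPKM + 1 with 95% intervals for the 8 genes in STZ against Con (circles) and STZ+AOS against AOS (squares). Filled points have an adjusted p under 0.05, dotted lines give the median of all tested genes, and Ppp1r3g is farthest to the right at 3.03 and 3.01 while Ppp1r3c is farthest to the left at -1.45 and -1.52.

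The transplanted groups were set against STZ to ask whether FMT moved these genes. A10-FMT against STZ called 0 of the 8 genes by limma, while 0.226% of all tested genes were called, and 2212 of 10602 genes had an unadjusted p under 0.05. Con-FMT against STZ also called 0 of the 8, beside 0.00943% of all tested genes and 2131 genes with an unadjusted p under 0.05. Both comparisons use the same 3 STZ mice. The groups did not overlap in Ugp2 and Ppp1r3b, both lower, for A10-FMT, and in Ppp1r3b and Ppp1r3g, both lower, for Con-FMT. Over all tested genes 21.5% and 17.7% did not overlap, 13.9% and 9.38% being lower. Median changes of the 8 genes were -0.20 for A10-FMT and -0.41 for Con-FMT, beside -0.05 and -0.03 for all tested genes.

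Ugp2 was at 181, 183 and 173 RPKM in A10-FMT and at 211, 167 and 149 RPKM in Con-FMT. These values lie between those of Con and those of STZ mice 1 and 2, and STZ mouse 3, at 194 RPKM, lies under the highest Con-FMT mouse. The log2 change against STZ was -0.46 for A10-FMT (limma adjusted p = 0.174) and -0.50 for Con-FMT (0.147). Ppp1r3g was at 2.71, 0.88 and 3.62 RPKM in A10-FMT and at 0.88, 0.47 and 1.09 RPKM in Con-FMT, with changes of -1.77 (limma adjusted p = 0.119) and -2.59 (0.0719).

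Ppp1r3c was at 24.1, 19.25 and 10.7 RPKM in A10-FMT and at 30.3, 32.05 and 20.3 RPKM in Con-FMT. Each group overlapped the STZ mice only through STZ mouse 3 at 31.9 RPKM, and the changes were 0.24 (limma adjusted p = 0.773) and 0.87 (0.263). Ppp1r3b lay further from Con than the STZ mice did, at 19.5, 19.2 and 26.3 RPKM in A10-FMT and 19.2, 26.4 and 21.05 RPKM in Con-FMT. Its changes against STZ were -0.52 (limma adjusted p = 0.228) and -0.49 (0.264). Gys2, at 73.7, 83.1 and 109 RPKM in A10-FMT and 73.1, 51.0 and 50.2 RPKM in Con-FMT, overlapped the STZ mice in both groups, with changes of 0.10 (limma adjusted p = 0.889) and -0.50 (0.428).

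These counts turned on STZ mouse 3. Without it, A10-FMT against STZ called Ugp2 (-0.63, limma adjusted p = 0.0252) and Ppp1r3g (-2.49, 0.00325) lower, beside 12.7% of all tested genes. Con-FMT against STZ then called Ugp2 (-0.67, limma adjusted p = 0.0176), Phka2 (-0.61, 0.0411) and Ppp1r3g (-3.32, 0.000596) lower and Ppp1r3c (1.41, 0.0111) higher, beside 15.5% of all tested genes. Leaving out STZ mouse 1 or 2 instead gave 0 calls among the 8 genes in both comparisons.

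Set against Con, some of the 8 genes also differed in the transplanted mice. Of the changes called, those of Ugp2 were smaller than in STZ against Con (1.94). Those of Gys2 and Ppp1r3b were not (1.27 and -0.77 in STZ against Con). A10-FMT against Con called 3 of 8 genes, beside 18.4% of all tested genes (15.9% higher and 2.47% lower). Ugp2 (log2 change 1.48, limma adjusted p = 0.000821) and Gys2 (1.37, 0.0208) were higher and Ppp1r3b (-1.29, 0.00588) was lower. Con-FMT against Con called 2 of 8, beside 19.4% of all tested genes (17.5% higher and 1.89% lower), namely Ugp2 higher (1.44, limma adjusted p = 0.00113) and Ppp1r3b lower (-1.25, 0.00758). Mice did not overlap with Con in 5 genes for A10-FMT and 4 for Con-FMT, against 48.9% and 45.9% of all tested genes. For A10-FMT 3 of these genes were higher and 2 lower (41.7% and 7.17% of all tested genes), and for Con-FMT 2 and 2 (40.7% and 5.22%). Ppp1r3c did not overlap with Con in either group but was not called (-1.21, limma adjusted p = 0.06, and -0.59, 0.316). The Gys2 call for A10-FMT was lost without A10-FMT mouse 3, Con mouse 1 or Con mouse 3 (0.0636 to 0.089). Gys2 in Con-FMT was at 0.77 with a limma adjusted p of 0.127.

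**Figure D4:**
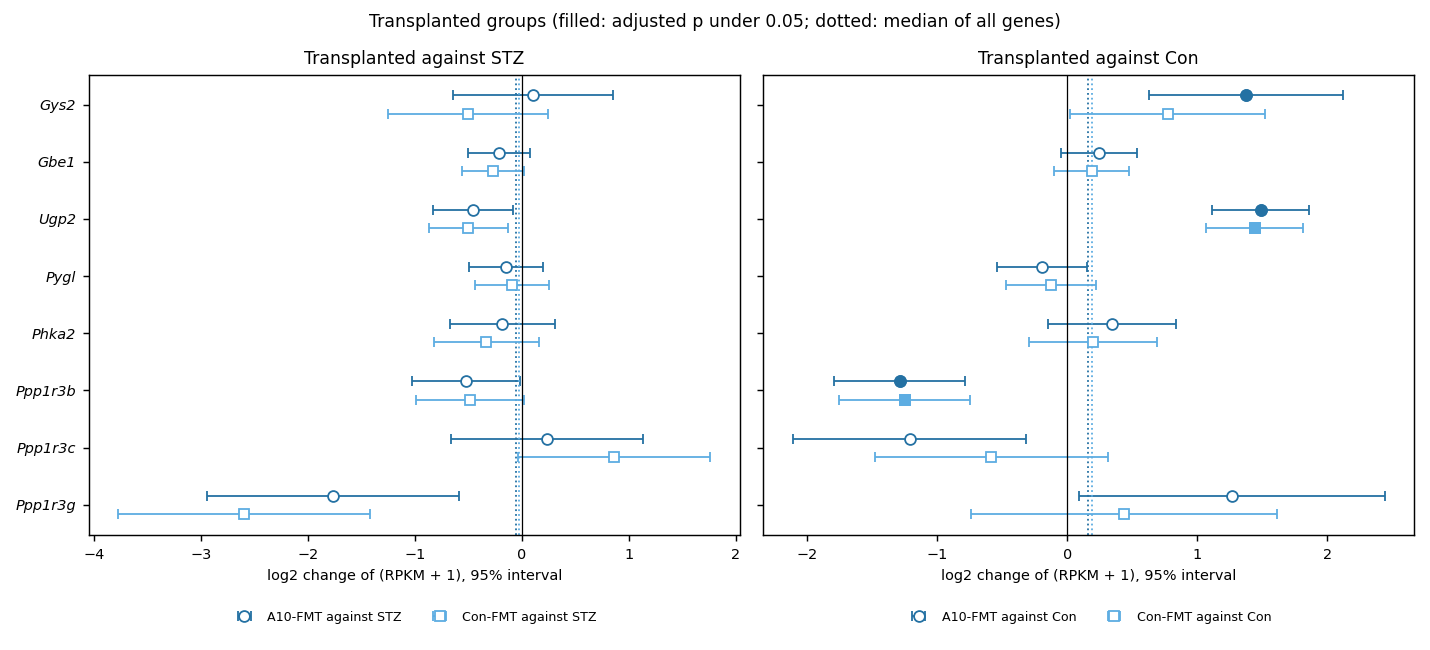
Log2 change of RPKM + 1 with 95% intervals for A10-FMT (circles) and Con-FMT (squares) against STZ on the left and against Con on the right. No point is filled on the left (adjusted p of 0.0719 or more), whereas on the right Ugp2 and Ppp1r3b are filled for both transplants and Gys2 for A10-FMT, with filled meaning an adjusted p under 0.05.

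A10-FMT against Con-FMT compared the donors. None of the 8 genes was called by limma, 0% of all 10602 tested genes were called, and 303 genes had an unadjusted p under 0.05. Gys2 was the one gene of the 8 whose mice did not overlap, higher in A10-FMT, against 8.92% of all tested genes (2.94% higher). The lowest A10-FMT mouse (73.67 RPKM) lay barely above the highest Con-FMT mouse (73.08 RPKM). Its log2 difference was 0.60 (95% interval -0.14 to 1.352; limma adjusted p = 0.999). The intervals of Ppp1r3c (-1.53 to 0.27) and Ppp1r3g (-0.35 to 2.0) also include 0.

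AOS without STZ was tested against Con in the fit of all 6 groups. It called 0 of the 8 genes by limma, beside 0.00924% of all 10822 tested genes, and 781 genes had an unadjusted p under 0.05. AOS mice lay above every Con mouse in Gbe1, Ugp2 and Phka2, against 24.4% of all tested genes that did not overlap in either direction and 19.1% that were higher. Gbe1 had a log2 change of 0.58 ± 0.12 (SE; limma unadjusted p = 0.000183, adjusted p = 0.278) and Ugp2 of 0.58 ± 0.17 (unadjusted p = 0.00394, adjusted p = 0.524). Neither passes the correction, although 3 of 3 AOS mice were above all Con mice.

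STZ+AOS against STZ called 0 of the 8 genes by limma, with 0% of all tested genes called and 657 at an unadjusted p under 0.05. All 8 genes overlapped between these groups, while 5.13% of all tested genes did not. Changes ran from -0.55 in Ppp1r3b (95% interval -1.17 to 0.07) to 0.56 in Ppp1r3g (-1.02 to 2.14). The AOS effect with STZ minus that without STZ was called for 0 of the 8 and for 0% of all tested genes, with 584 at an unadjusted p under 0.05. Gbe1 had a difference of -0.58 (95% interval -0.94 to -0.22; limma adjusted p = 0.856).

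Across the 6 groups, mean Ugp2 fell in the order STZ+AOS (279 RPKM), STZ (249.5), A10-FMT (179), Con-FMT (176), AOS (94.95) and Con (63.7). Neighbours in this order overlapped except STZ and A10-FMT, Con-FMT and AOS, and AOS and Con. For Ppp1r3c the order was AOS (42.2), Con (41.4), Con-FMT (27.6), A10-FMT (18.03), STZ (16.99) and STZ+AOS (14.2 RPKM). Only Con and Con-FMT failed to overlap among its neighbours. Mean Gys2 was 97.0 in STZ+AOS, 90.8 in STZ, 88.7 in A10-FMT, 58.1 in Con-FMT, 36.5 in AOS and 33.7 RPKM in Con, and among neighbours those from STZ+AOS to A10-FMT overlapped, as did AOS and Con. The neighbouring means of Gbe1, Pygl, Phka2, Ppp1r3b and Ppp1r3g all overlapped.

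Genes whose pattern was most like each member are given by Pearson r of log2(RPKM + 1) over the 18 libraries, as a description, since groups are shared and the highest of 10822 genes was taken. For Gys2 these were Per3 (0.949) and Dmac2 (0.936), and for Ugp2 Npc1 (0.983) and Cyp2c39 (0.978). For Ppp1r3c this was Mug2 (0.950), for Ppp1r3g they were Atn1 (0.965) and Klf6 (0.951), and for Ppp1r3b Slc13a2 (0.843) and Chrna4 (0.841). For Phka2 they were Nfib (0.910) and Smlr1 (0.886), for Pygl Klhl5 (0.883) and Cadps2 (0.816), and for Gbe1 Wsb1 (0.804) and Cdk19 (0.791). Among the members, Gys2 and Ugp2 were the most alike (0.842), and 0.839 after the group means were removed.

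Per3 is a gene of the circadian clock, and Gys2 is known to cycle over the day. The labels give neither the hour of sampling nor the feeding state. In Con mice 1 to 3 Per3 was at 0.18, 0.81 and 0.58 RPKM, and in STZ mice 1 to 3 at 10.8, 5.54 and 1.57 RPKM, the same order of mice as for Gys2 in both groups. After the group means were removed, r between Gys2 and Per3 was 0.906. Of 15 clock genes tested, 9 were higher and 3 lower in STZ against Con by limma, where 33.0% of all tested genes were higher and 5.52% lower. Among them Nr1d2 rose by 2.81 (adjusted p = 0.000102), Nr1d1 by 3.19 (0.000326) and Per1 by 2.60 (0.00128), while Nfil3 fell by 1.10 (0.00325), Npas2 by 1.37 (0.00387) and Cry1 by 0.84 (0.0141). In STZ+AOS against AOS 8 clock genes were higher and 1 lower, beside 31.8% and 6.11% of all tested genes. In A10-FMT against Con 9 were higher and 4 lower (15.9% and 2.47% of all tested genes), and in Con-FMT against Con 6 and 3 (17.5% and 1.89%). None was called in either transplant against STZ, in A10-FMT against Con-FMT, in AOS against Con or in STZ+AOS against STZ. Their part in the change of Gys2 and the other members was not tested.

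**Figure D5:**
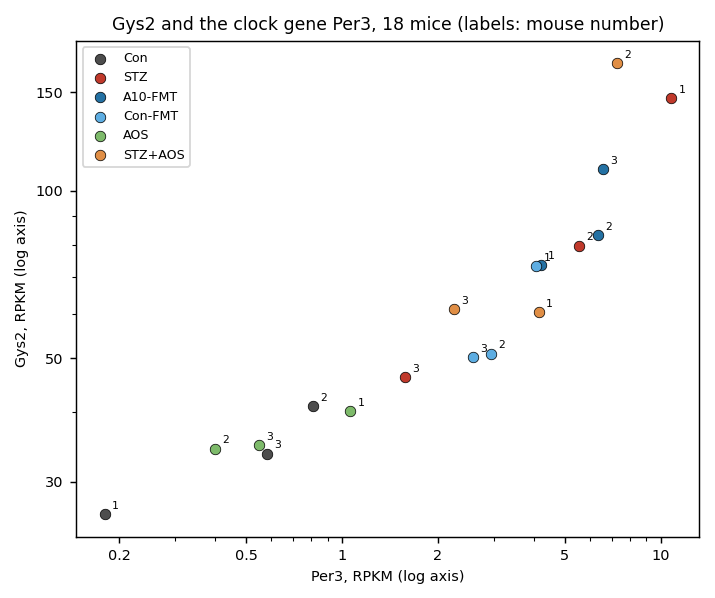
Gys2 against Per3, both as RPKM on log axes, 1 point per mouse with its number, coloured by group. Gys2 is higher where Per3 is higher over the 18 mice (r = 0.949), also within the STZ group, where mouse 1 is at 147 and 10.8 RPKM and mouse 3 at 46.2 and 1.57 RPKM.

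A further list of 36 glycogen genes held 35 in the table, of which 27 were tested in STZ against Con. By limma 13 were higher and 1 lower, where 33.0% of all tested genes were higher and 5.52% lower (38.5% in all), with a median change of 0.32 beside 0.21 for all tested genes. Of genes for glycogen formation 1 of 5 was called, Pgm2 (0.65, adjusted p = 0.0121), a phosphoglucomutase whose symbol has been exchanged with Pgm1 between annotations. Of breakdown genes 2 of 3 were called, among them the lysosomal glucosidase gene Gaa (0.70, adjusted p = 0.00667). None of the 3 other phosphorylase kinase subunits tested and neither Epm2a nor Nhlrc1, the genes of laforin and malin, was called.

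All 3 catalytic subunits of protein phosphatase 1 were higher in STZ by limma, Ppp1cc by 0.85 (adjusted p = 0.00128), Ppp1cb by 0.61 (0.0022) and Ppp1ca by 0.36 (0.0306). Of 6 kinase genes 4 were higher, among them Prkacb (0.47, limma adjusted p = 0.00148), Prkaa2 (0.45, 0.00244) and Gsk3a (0.32, 0.0218). These calls are of the values as deposited, in which 33.0% of all tested genes were higher and their median change was 0.21. Around glucose 6-phosphate, the glucose transporter gene Slc2a2 (1.51, adjusted p = 0.00127) and the glucose 6-phosphate transporter gene Slc37a4 (1.38, 0.000378) were higher.

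In STZ+AOS against AOS 10 genes of the list were higher and 2 lower of 28 tested, beside 31.8% and 6.11% of all tested genes. Each transplant against Con gave 9 higher and 1 lower of 27, beside 15.9% and 2.47% of all tested genes for A10-FMT and 17.5% and 1.89% for Con-FMT, and the transplants against STZ gave 0. The muscle and brain enzymes were low in every liver, Gys1 at 0.54 to 1.31, Pygm at 0.22 to 1.02 and Pygb at 0.55 to 1.59 RPKM over the 18 mice. The muscle targeting subunit Ppp1r3a was listed at 0 in 10 of 18 libraries and at most at 0.03 RPKM. The 5 skeletal muscle markers summed to 0.46 to 2.22 RPKM.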

How the data were processed

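Liver mRNA of 18 mice was enriched with oligo(dT) and sequenced on an Illumina HiSeq instrument. Per the methods of the study, SOAPaligner mapped the reads to reference genes, whereas the submitters' processing notes name Bowtie 0.12.2 and mm10. The authors deposited RPKM, 1 value per gene and library, in which read numbers are already scaled to transcript length and library size. The strand setting is not given in the sources used here. Every one of the 18 columns was matched to its group and mouse through the labels. A gene entered a fit when 3 or more of its libraries reached 1 RPKM, and values were used as log2(RPKM + 1). The test was limma 3.58.1 (R 4.3.3), with lmFit on group means, contrasts.fit, and eBayes with a mean-variance trend. It was two-sided, with Benjamini-Hochberg adjustment over all genes of a comparison and a limit of 0.05. The 12 libraries of the STZ, Con and transplanted groups formed 1 fit (10602 genes), and comparisons with AOS or STZ+AOS came from a fit of all 6 groups (10822 genes).

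Each column was taken as 1 mouse. The p-values rest on the spread between mice within groups, estimated over all groups of a fit and not over the compared groups alone. The 8 genes and the gene lists were chosen with earlier results of these data known. All 8 genes are named in every comparison, with the 2 genes of highest r for each, the muscle and brain enzymes, and at most 3 genes per direction of each further list, ranked by adjusted p for STZ. Some genes that these rules would name are not reported here. Ppp1r3a was added after its values were seen. Reads per library are not part of RPKM, but the step that 1 read makes in low values, taken from 62 genes, put the relative depth of the 18 libraries at 0.96 to 1.08. No 2 libraries held the same values. Gene positions are those of GENCODE M21 on GRCm38, found by symbol for 18516 symbols, and promoter windows come from RefSeq on GRCm38.p6. The procedure was tested on simulated data. Alternatives were median-ratio scaling, quantile normalization, limma without trend, a pseudocount of 0.1, other filters, other groups in the fit, a replicate block and leaving out each mouse. DEGseq, the test of the authors, needs counts and was not run.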

Additional observations from a re-analysis of the deposited data

How the results depend on the processing

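The number of the 8 genes called in STZ against Con was 6 and ran from 3 to 7 when 1 mouse was left out. Without STZ mouse 2 it was 3 (Gys2, Ugp2 and Ppp1r3g), and without STZ mouse 3 it was 7. In A10-FMT against STZ it ran from 0 to 2 and in Con-FMT against STZ from 0 to 4, the higher counts without STZ mouse 3. It ran from 2 to 3 in A10-FMT against Con and from 4 to 5 in STZ+AOS against AOS. Under the stricter limits of the study (FDR up to 0.001 with a log2 change of at least 1 in size), 1 gene passed in STZ against Con, 1 for A10-FMT against Con, 0 for Con-FMT against Con and 1 for STZ+AOS against AOS, fewer by the construction of that limit. A fit of the compared groups alone gave 3 calls in STZ+AOS against AOS in place of 5, and the cause was not tested. The Pygl change in STZ against Con ran from -0.14 to 0.055 with 1 mouse left out (without Con mouse 1 and Con mouse 2), and also turned positive, at 0.03, without STZ mouse 1. Ugp2 in STZ against Con was called under every alternative run, at log2 changes of 1.82 to 2.11 with 1 mouse left out.

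Mouse numbers 1 to 3 recur in all groups. Deviations of mice with the same number correlated at -0.249 to 0.472 (median 0.0315, 16 of 45 pairs over 0.1). Those of mice with other numbers correlated at -0.534 to 0.449 (median -0.0127, 16 of 90 pairs over 0.1). Pairs over 0.1 were thus more frequent with the same number. Neither the labels nor the paper name a pairing, and the numbers were not taken as one. With the replicate block, 6 genes were called in STZ against Con, 3 for A10-FMT against Con, 2 for Con-FMT against Con, 5 for STZ+AOS against AOS and 0 in the other comparisons, the same counts as without it. Over all tested genes, median-ratio scaling gave 1155 calls in place of 1953 for A10-FMT against Con, 866 in place of 2059 for Con-FMT against Con, 2648 in place of 4102 for STZ+AOS against AOS, 77 in place of 24 for A10-FMT against STZ and 73 in place of 1 for Con-FMT against STZ. The share of calls that were higher went from 86.6% to 57.6% in A10-FMT against Con, from 90.3% to 59.9% in Con-FMT against Con, from 83.9% to 50% in STZ+AOS against AOS, from 29.2% to 42.9% in A10-FMT against STZ and from 0% to 27.4% in Con-FMT against STZ. With 3 mice in a group, and with values of Ppp1r3g under 1 RPKM in Con, small changes were not detectable.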
